A study of Mus musculus with 272 samples.

Results

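The genes described here encode factors that cut back broken DNA ends and join them through short stretches of identical bases. They are *Polq*, *Parp1*, *Lig3*, *Nbn*, *Mre11a*, *Rad50*, *Rbbp8*, *Xrcc1*, *Fen1* and *Exo1*, taken by gene name from the GENCODE M21 annotation of the mouse genome (mm10). They are 10 of 21938 protein-coding genes, and of 55413 genes in all, on the assembled chromosomes. They were chosen by name, with earlier results of these data known.

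When both strands of DNA break, the ends may be joined directly or first be trimmed back on 1 strand, a step called end resection. Resection bares short repeats on either side of the break, which can pair with each other, and joining through such microhomologies deletes the bases between them. Muscle stem cells (MuSCs) are the resident progenitors of skeletal muscle, and in adult muscle most of them rest outside the cell cycle.

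The series studied how Cas9-cut DNA is repaired in MuSCs, and 8 of its 272 samples have a peak list of chromatin state. These are ATAC-seq, which finds DNA open to a transposase, and ChIP-seq for H3K4me3 (a mark of active start sites), H3K27ac (found at promoters and enhancers in use) and H3K27me3 (the Polycomb mark of silenced genes), each with 2 replicates. The cells of all 8 libraries were GFP+ MuSCs sorted from hindlimb muscle of Pax7Cas9 mice, which carry Cre under *Pax7* control and a Cre-dependent Cas9, so that every library comes from cells that express Cas9. There is no other condition among them, the labels give neither age nor sex for these libraries, and nothing says whether the replicates came from separate mice.

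The lists held 140716 and 94382 ATAC-seq peaks in replicates 1 and 2, 18001 to 20512 of H3K4me3, 18584 to 24209 of H3K27ac and 6064 to 10458 of H3K27me3. They carry no read numbers, so the depth is unknown and no interval is given. A peak's height is the fold by which its summit exceeds the background, in the authors' peak calls. Of 9 marker genes of MuSCs, 9 had an ATAC-seq and an H3K4me3 promoter peak in both replicates and 8 one of H3K27ac (*Calcr* had none). H3K27ac lay in both replicates at 1 of 6 promoters of fibro-adipogenic markers, 1 of 6 of endothelial, 1 of 5 of blood cell and 1 of 5 of myofibre markers. ATAC-seq peaks lay at 4 of 6, 5 of 6, 3 of 5 and 4 of 5 of these promoters. H3K4me3 lay at 3 of 6, 2 of 6, 2 of 5 and 3 of 5 of them. *Pdgfra*, *Acta1* and *Ckm* carried H3K27me3 in both replicates. Of all protein-coding genes, 67.8% had an ATAC-seq, 60.8% an H3K4me3 and 46.6% an H3K27ac promoter peak in both replicates. Whether other cells in the sorted gate add to the peaks described here was not tested.

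All 10 genes had open chromatin, H3K4me3 and H3K27ac at a promoter, taken as 3 kb either side of any annotated start site, in both replicates. Among all protein-coding genes the same held for 67.8% with ATAC-seq, 60.8% with H3K4me3 and 46.6% with H3K27ac. No promoter of the 10 genes had an H3K27me3 peak in either replicate. Of all 21938 protein-coding genes, 1241 had one in replicate 1, 1677 in replicate 2 and 4.81% in both, so that 0 of 10 is near the general share. The 3 active features together, without H3K27me3, stood at 10 of 10 genes, whereas 44.4% of all protein-coding genes had this state. The share of genes in general is thus high, and the count is a description of a named list.

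The heights differed more among the 10 genes than the presence of peaks did. *Xrcc1* had the highest ATAC-seq promoter peak in both replicates, *Nbn* the highest H3K4me3 and *Lig3* the highest H3K27ac. *Polq* had the lowest H3K4me3 and the lowest H3K27ac of the 10 in both replicates, although its ATAC-seq height lay between those of *Rbbp8* and *Nbn* in the order. These orders are within a list, since folds of different lists are not on the same scale.

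**Figure D1:**
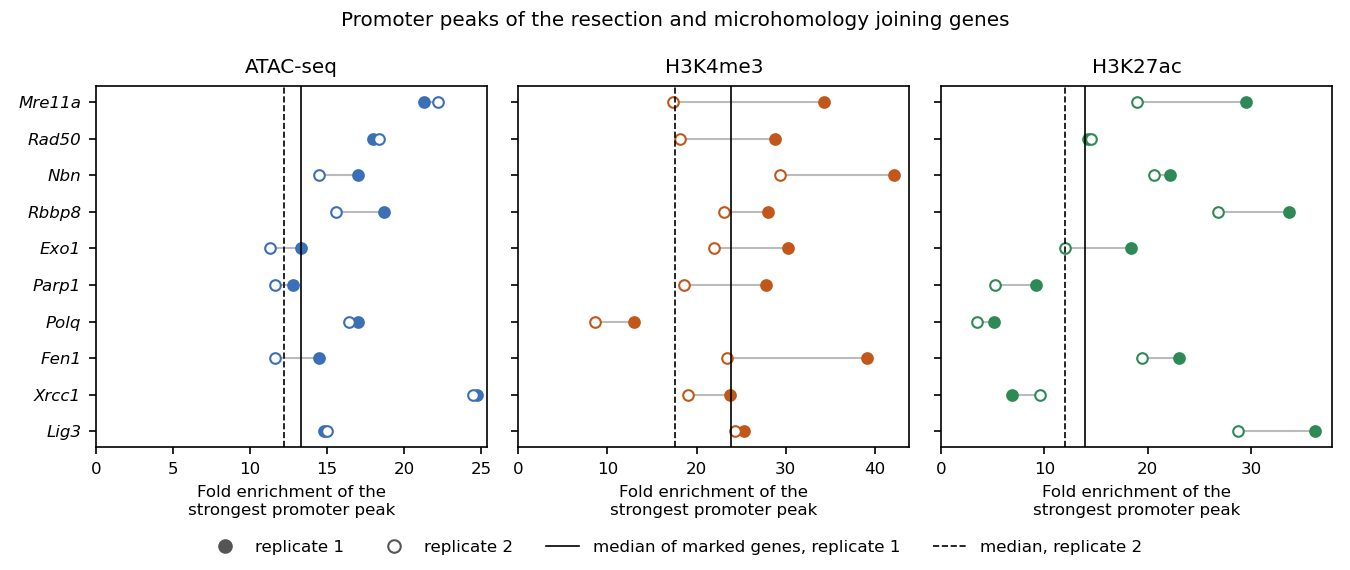
Fold enrichment of the strongest promoter peak (x axis, linear) of each of the 10 genes (rows) for ATAC-seq, H3K4me3 and H3K27ac, with replicate 1 as a filled and replicate 2 as an open circle, and the median of all marked protein-coding genes as a line (solid for replicate 1, dashed for replicate 2). *Polq* lies left of both medians for H3K4me3 and H3K27ac and right of both for ATAC-seq.

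The promoter sequences shown are those of *Polq* and *Parp1*, which had the 2 lowest mean H3K27ac heights, and of *Lig3*, which had the highest. They were chosen by these heights, and whether sequence and height are linked was not tested. Each line gives bases upstream of the RefSeq start site, read on the plus strand of GRCm38.p6, up to the first exon of a protein-coding gene. The positions are chr16:37011536-37011785 for *Polq*, chr1:180568641-180568890 for *Parp1* and chr11:82780859-82781107 for *Lig3*. Capitals mark the letters of GGGCGG (the GC box bound by Sp1 and Klf factors) or CCGGAAG (the core of the Ets site), on either strand.
Polq: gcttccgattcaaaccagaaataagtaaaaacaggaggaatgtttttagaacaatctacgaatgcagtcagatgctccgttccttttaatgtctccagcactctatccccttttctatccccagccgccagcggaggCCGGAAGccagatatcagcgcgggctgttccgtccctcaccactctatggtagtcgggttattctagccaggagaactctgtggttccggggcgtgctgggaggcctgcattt
Parp1: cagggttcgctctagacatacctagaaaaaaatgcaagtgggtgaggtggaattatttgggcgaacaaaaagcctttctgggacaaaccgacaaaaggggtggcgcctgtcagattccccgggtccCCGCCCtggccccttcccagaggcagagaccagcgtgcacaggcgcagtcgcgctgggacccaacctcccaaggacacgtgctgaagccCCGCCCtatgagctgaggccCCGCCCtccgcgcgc
Lig3: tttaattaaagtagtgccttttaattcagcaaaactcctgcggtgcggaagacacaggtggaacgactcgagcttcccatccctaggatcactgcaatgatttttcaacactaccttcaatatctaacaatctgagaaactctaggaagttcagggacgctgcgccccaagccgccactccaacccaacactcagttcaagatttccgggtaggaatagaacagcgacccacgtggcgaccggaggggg
The *Polq* stretch holds CCGGAAG at −113 bp from the start site, within the open region whose ATAC-seq summits lay at −89 and −101 bp. The *Parp1* stretch holds 3 GC boxes between −124 and −15 bp from its start, and the *Lig3* stretch holds neither of these letters. The full promoters of 300 bases, which run on past the stretches shown, hold 4 GC boxes in *Parp1* and 1 in *Lig3*. The lack of a GC box in *Lig3* thus comes from where its stretch ends.

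The RefSeq table of promoters (250 bases before to 50 after a start site) matched 6 of the 10 genes with 7 promoters, 2 of them of *Fen1*. *Nbn*, *Rad50*, *Rbbp8* and *Exo1* were not matched. GGGCGG was found in 3 of the 7 promoters (*Parp1*, *Mre11a* and *Lig3*) and in 35.7% of the 32851 promoters of the table. CCGGAAG was in *Polq* alone of the 7 and in 8.86% of all promoters. CCAAT, the letters of the NF-Y site, was in *Mre11a* and *Xrcc1* and in 37.4% of all. The E2F letters TTCGCGC were in 1 of the *Fen1* promoters and in 1.59% of all, and TTTGGCGC was in none of the 7 and in 0.514% of all. GCATGCGC, for Nrf1, was in none of the 7 and in 2.71% of all, and TATAAA, the TATA box, was in the other *Fen1* promoter and in 13.6% of all. Both strands were searched, and none of these letters overlaps another in the stretches shown. The ratio of CpG observed to expected was between 0.385 (*Xrcc1*) and 0.978 (*Mre11a*), with a median of 0.694 over the 7 promoters and 0.384 over the table. These are matches of letters and were not tied to binding.

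*Mre11a*, *Rad50* and *Nbn* encode the MRN complex, which binds a broken end and starts its resection. *Mre11a*, the nuclease subunit (chr9:14784654-14837123, plus strand), had an ATAC-seq promoter peak of 21.3-fold in replicate 1 and 22.2-fold in replicate 2. Its H3K4me3 peak was 34.3-fold and 17.4-fold, and its H3K27ac peak was 29.5-fold and 19-fold. Replicate 2 was lower for both histone marks, as was the median over all marked genes, which was 23.9 in replicate 1 and 17.6 in replicate 2 for H3K4me3 and 13.9 and 12 for H3K27ac. The rank of *Mre11a* fell too, from percentile 80.2 to 49.2 for H3K4me3 and from 90.1 to 78.9 for H3K27ac. Its drop thus went beyond that of the lists. The ATAC-seq summits lay at −34 and −46 bp from the 5' end of the gene, in a promoter that *Mre11a* shares with *Ankrd49*. The peaks cannot be assigned to either gene of such a shared promoter.

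*Rad50*, the long coiled-coil subunit that tethers the ends (chr11:53649519-53707319, minus strand), was 18-fold and 18.4-fold for ATAC-seq. Its H3K4me3 promoter peak was 28.8-fold and 18.1-fold. Its H3K27ac peak differed little between the replicates, at 14.2-fold and 14.5-fold. The ATAC-seq summits lay at −39 and −45 bp from the 5' end and the summits of both histone marks 98 to 136 bp downstream of it. *Rad50* thus stood above the median of all marked genes in each of the 6 lists, though by little for H3K27ac, where it ranked at percentile 50.4 in replicate 1.

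*Nbn*, the subunit that recruits the ATM kinase (chr4:15957925-15992589, plus strand), had ATAC-seq peaks of 17-fold and 14.5-fold. Its H3K4me3 peaks of 42.2-fold and 29.4-fold were the highest of the 10 genes in each replicate and stood at percentiles 94.3 and 90.3 of all marked protein-coding genes. Its H3K27ac peaks were 22.2-fold and 20.6-fold, at percentiles 76.7 and 83.2. *Nbn* has 2 annotated start sites, 42 bp apart, and its ATAC-seq summits lay 342 and 292 bp inside the gene.

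*Rbbp8* encodes CtIP, the partner of MRN that switches on its nuclease, and *Exo1* a nuclease that extends the resected tract. *Rbbp8* (chr18:11633276-11745221, plus strand) had ATAC-seq peaks of 18.7-fold and 15.6-fold. Its H3K4me3 was 28-fold and 23.1-fold, and its H3K27ac was 33.7-fold and 26.8-fold, at percentiles 94.2 and 93.7. Its promoter peaks lay inside the gene, with summits 24.3 to 24.7 kb downstream of the 5' end, at a group of annotated start sites it shares with the antisense gene *AC090479.2*. The 5' end of the gene record itself had no peak of any feature within 3 kb, the nearest being 23.5 kb away.

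*Exo1* (chr1:175880581-175913489, plus strand) had 2 narrow ATAC-seq peaks side by side in replicate 1, the higher of 13.3-fold, and a peak of 545 bp and 11.3-fold in replicate 2. Its H3K4me3 was 30.3-fold and 22-fold. Its H3K27ac was 18.4-fold and 12-fold, at percentiles 66 and 50. For openness *Exo1* ranked at percentiles 50.6 and 43.2 of marked genes and *Parp1* at 46.4 and 45.2. These were the 2 lowest of the 10 in mean height, and their replicate values overlapped.

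*Parp1*, the sensor that binds nicks and breaks and builds poly(ADP-ribose) chains (chr1:180568924-180601254, plus strand), had ATAC-seq peaks of 12.8-fold and 11.6-fold. Its H3K4me3 was 27.8-fold and 18.6-fold, at percentiles 61.7 and 54.3. Its H3K27ac was low in both replicates, at 9.2-fold and 5.27-fold and percentiles 28.3 and 9.43. The H3K27ac peaks spanned 596 and 571 bp beside H3K4me3 peaks of 1809 and 1347 bp. The open region of *Parp1* thus carried H3K4me3 near the middle of all marked genes and H3K27ac in their lower part.

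*Polq* encodes polymerase theta, which pairs the microhomologies and fills in the gaps (chr16:37011786-37095417, plus strand). Its ATAC-seq promoter peak was 17-fold in replicate 1 and 16.4-fold in replicate 2, at percentiles 72.3 and 76.8. Its H3K4me3 was 13-fold and 8.55-fold, at percentiles 21.8 and 16.5. Its H3K27ac was 5.18-fold and 3.52-fold, at percentiles 8.42 and 0.591, so that nearly every marked gene stood higher in replicate 2. The H3K27ac peak of replicate 2 was 206 bp wide and had a −log10 q of 2.27, against 971 bp and 6.21 in replicate 1. In replicate 2 it ended 106 bp short of the start site, while the H3K4me3 peaks of 1274 and 864 bp covered it. No feature other than ATAC-seq had a peak anywhere else in *Polq* or within 20 kb.

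*Fen1* encodes the endonuclease that trims the flaps left after pairing (chr19:10199132-10204169, minus strand). It had ATAC-seq peaks of 14.5-fold and 11.6-fold, H3K4me3 peaks of 39.1-fold and 23.4-fold and H3K27ac peaks of 23-fold and 19.5-fold. H3K4me3 ranked at percentiles 90.2 and 73.8 and H3K27ac at 78.6 and 80.4, above the middle in each replicate. The peaks lie in a promoter shared with *Tmem258*, and its gene window also overlaps the antisense gene *Gm10143*, so that they cannot be assigned to *Fen1* alone. *Fen1* is the shortest of the 10 genes, with 5038 bp against a median of 33787 bp.

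*Xrcc1* and *Lig3* encode the scaffold and the ligase that seal the joined ends. *Xrcc1* (chr7:24546289-24573440, plus strand) had the highest ATAC-seq peaks of the 10, of 24.7-fold and 24.5-fold, at percentiles 95 and 97.6 of all marked genes. Its H3K4me3 was 23.7-fold and 19-fold and its H3K27ac 6.9-fold and 9.56-fold. Both H3K27ac lists held 2 peaks here, with summits 285 and 1107 bp downstream of the 5' end in replicate 1 and 373 and 1116 bp in replicate 2. The ATAC-seq summits lay between them, 684 and 669 bp downstream. H3K4me3 had the same form in replicate 1, with peaks of 4.3-fold and 23.7-fold at 426 and 1051 bp, and 1 peak at 1019 bp in replicate 2. The open region thus sat between flanks that carried the marks, with the higher flank on the side of the gene body. The promoter overlaps that of *Pinlyp* on the other strand.

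*Lig3* (chr11:82781108-82804274, plus strand) had ATAC-seq peaks of 14.8-fold and 15-fold. Its H3K4me3 was 25.3-fold and 24.3-fold. Its H3K27ac of 36.2-fold and 28.7-fold was the highest of the 10 genes and stood at percentiles 95.9 and 95.6. The peaks were broad, with 1504 and 1611 bp of H3K27ac and 1993 and 1903 bp of H3K4me3. *Lig3* shares this promoter with the antisense gene *Gm11423*. *Lig3* and *Xrcc1* proteins act as a complex, and in mean height *Xrcc1* stood at place 1 of the 10 for openness and 8 for H3K27ac, while *Lig3* stood at 7 and 1.

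Ordered by mean ATAC-seq height, *Xrcc1*, *Mre11a* and *Rad50* did not overlap each other in their 2 replicate values. *Rad50*, *Rbbp8*, *Polq*, *Nbn* and *Lig3* followed with each overlapping the next, and *Fen1*, *Exo1* and *Parp1* formed a lower group below *Lig3*. For H3K4me3 each gene overlapped the next in the order except *Xrcc1* and *Polq*, of which *Polq* was lower in both replicates. For H3K27ac the order had breaks between *Fen1* and *Exo1*, between *Rad50* and *Xrcc1* and between *Parp1* and *Polq*. The order over the 10 genes was alike in both replicates for ATAC-seq and H3K27ac (Spearman's rho 0.879 and 0.927 over 10 genes) and less so for H3K4me3 (0.418), as a description over genes of the same libraries. Within replicate 1 the heights of H3K4me3 and H3K27ac had a rho of 0.43 and in replicate 2 of 0.745, over the same 10 genes. ATAC-seq height had a rho of −0.0788 and −0.515 with H3K4me3 and of 0.0545 and −0.139 with H3K27ac, in replicates 1 and 2.

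Set against all marked protein-coding genes, the median percentile of the 10 genes in replicates 1 and 2 was 72.4 and 70.9 by ATAC-seq height, 63.8 and 62 by that of H3K4me3 and 71.3 and 71 by that of H3K27ac. For ATAC-seq 9 and 7 of the 10 lay above the middle, for H3K4me3 8 and 8, and for H3K27ac 7 and 7. *Polq*, *Parp1* and *Xrcc1* were the 3 genes below the middle for H3K27ac in replicate 1. In replicate 2 the same 3 were below it, with *Exo1* close to the middle.

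**Figure D2:**
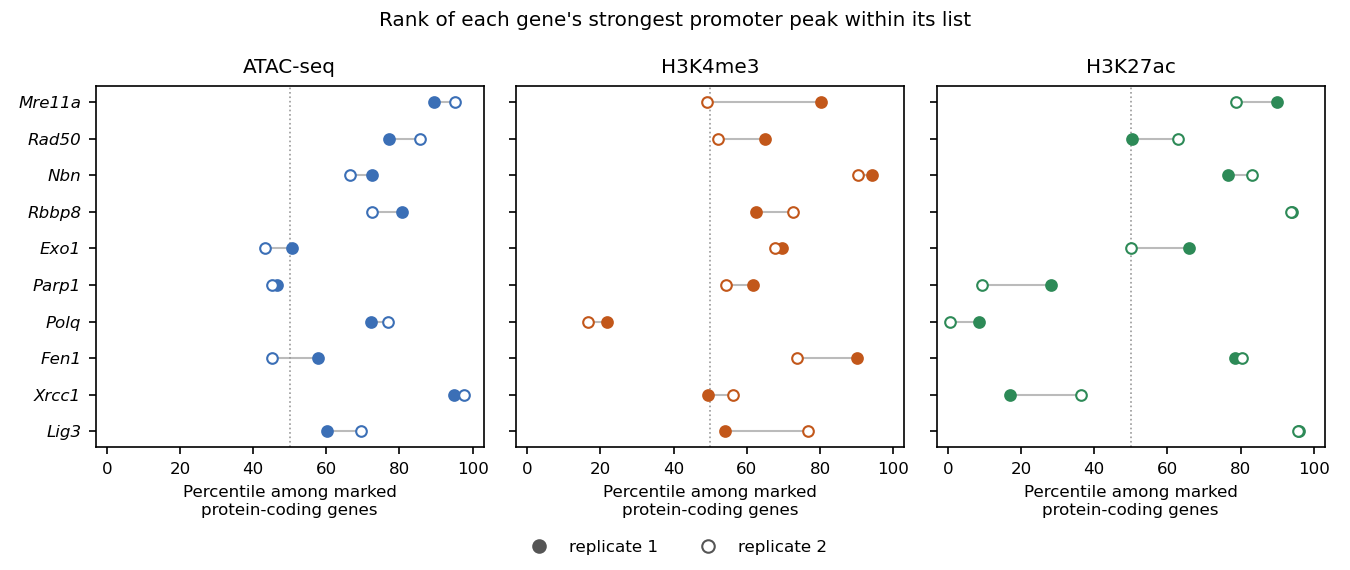
Percentile of each gene's strongest promoter peak (x axis) among all protein-coding genes with a promoter peak in the same list, for the 10 genes (rows) in replicate 1 (filled) and replicate 2 (open), with the middle as a dotted line. H3K27ac spreads from 0.591 (*Polq*, replicate 2) to 95.9 (*Lig3*, replicate 1), whereas *Polq* lies at 72.3 and 76.8 for ATAC-seq.

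The genes have 72 annotated start sites in all. Of these, 45 had an ATAC-seq peak within 3 kb in both replicates and 42 one of H3K4me3 and of H3K27ac. Many start sites of a gene lie close together, so that the same peak counts for several of them. The share over all annotated start sites was not counted, so these counts are a description only. The start sites that lay far inside *Polq*, *Mre11a*, *Rad50* and *Exo1*, more than 12 kb downstream of the 5' end, had no peak of these 3 features. *Parp1* had a small ATAC-seq peak near an internal start site, 19.1 kb inside the gene, of 4.73-fold and 5.49-fold, and *Xrcc1* had one 18.5 kb inside, of 8.11-fold and 7.75-fold. Neither carried a histone mark in either replicate. The promoters with *Mir6904*, in *Parp1*, and with *Gm23805*, in *Exo1*, overlap such internal windows.

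The nearest H3K27me3 peak to the 5' ends of the 10 genes was 36.5 to 4567 kb away in replicate 1 and 13.5 to 2211 kb in replicate 2, with medians of 385 and 206 kb. Within the gene and 20 kb either side, 1 of the 10 genes had an H3K27me3 peak in either replicate, against 16.8% of all protein-coding genes. This was *Exo1*, with a peak of 90 bp and 3.42-fold in replicate 2, 13.5 kb upstream, with a −log10 q of 0.957. The H3K27me3 lists were cut on p and not on q, so that 47.3% and 38.5% of their peaks have a q above 0.05, this one among them. *Nbn* lay farthest from the mark in both replicates.

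The windows of the 10 genes, each the gene and 20 kb either side, held 66 and 39 ATAC-seq peaks, 18 and 16 of H3K4me3, and 15 and 16 of H3K27ac. Every H3K4me3 and H3K27ac peak in these windows lay in a promoter, either of the gene itself (11 and 10 of H3K4me3, and 11 and 11 of H3K27ac) or of a neighbour. H3K4me3 is a mark of start sites in general, and the share of all its peaks that lie in a promoter was not counted. No H3K27ac peak away from promoters was present in any of the 10 windows, in either replicate or in both, and 10.2% of all protein-coding genes have one in both. At such a share a list of 10 genes may well hold none, so the count is near that of genes in general. The 10 genes are longer than most, with a median of 33787 bp against 17425 bp, which widens the windows in which such a peak could lie.

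**Figure D3:**
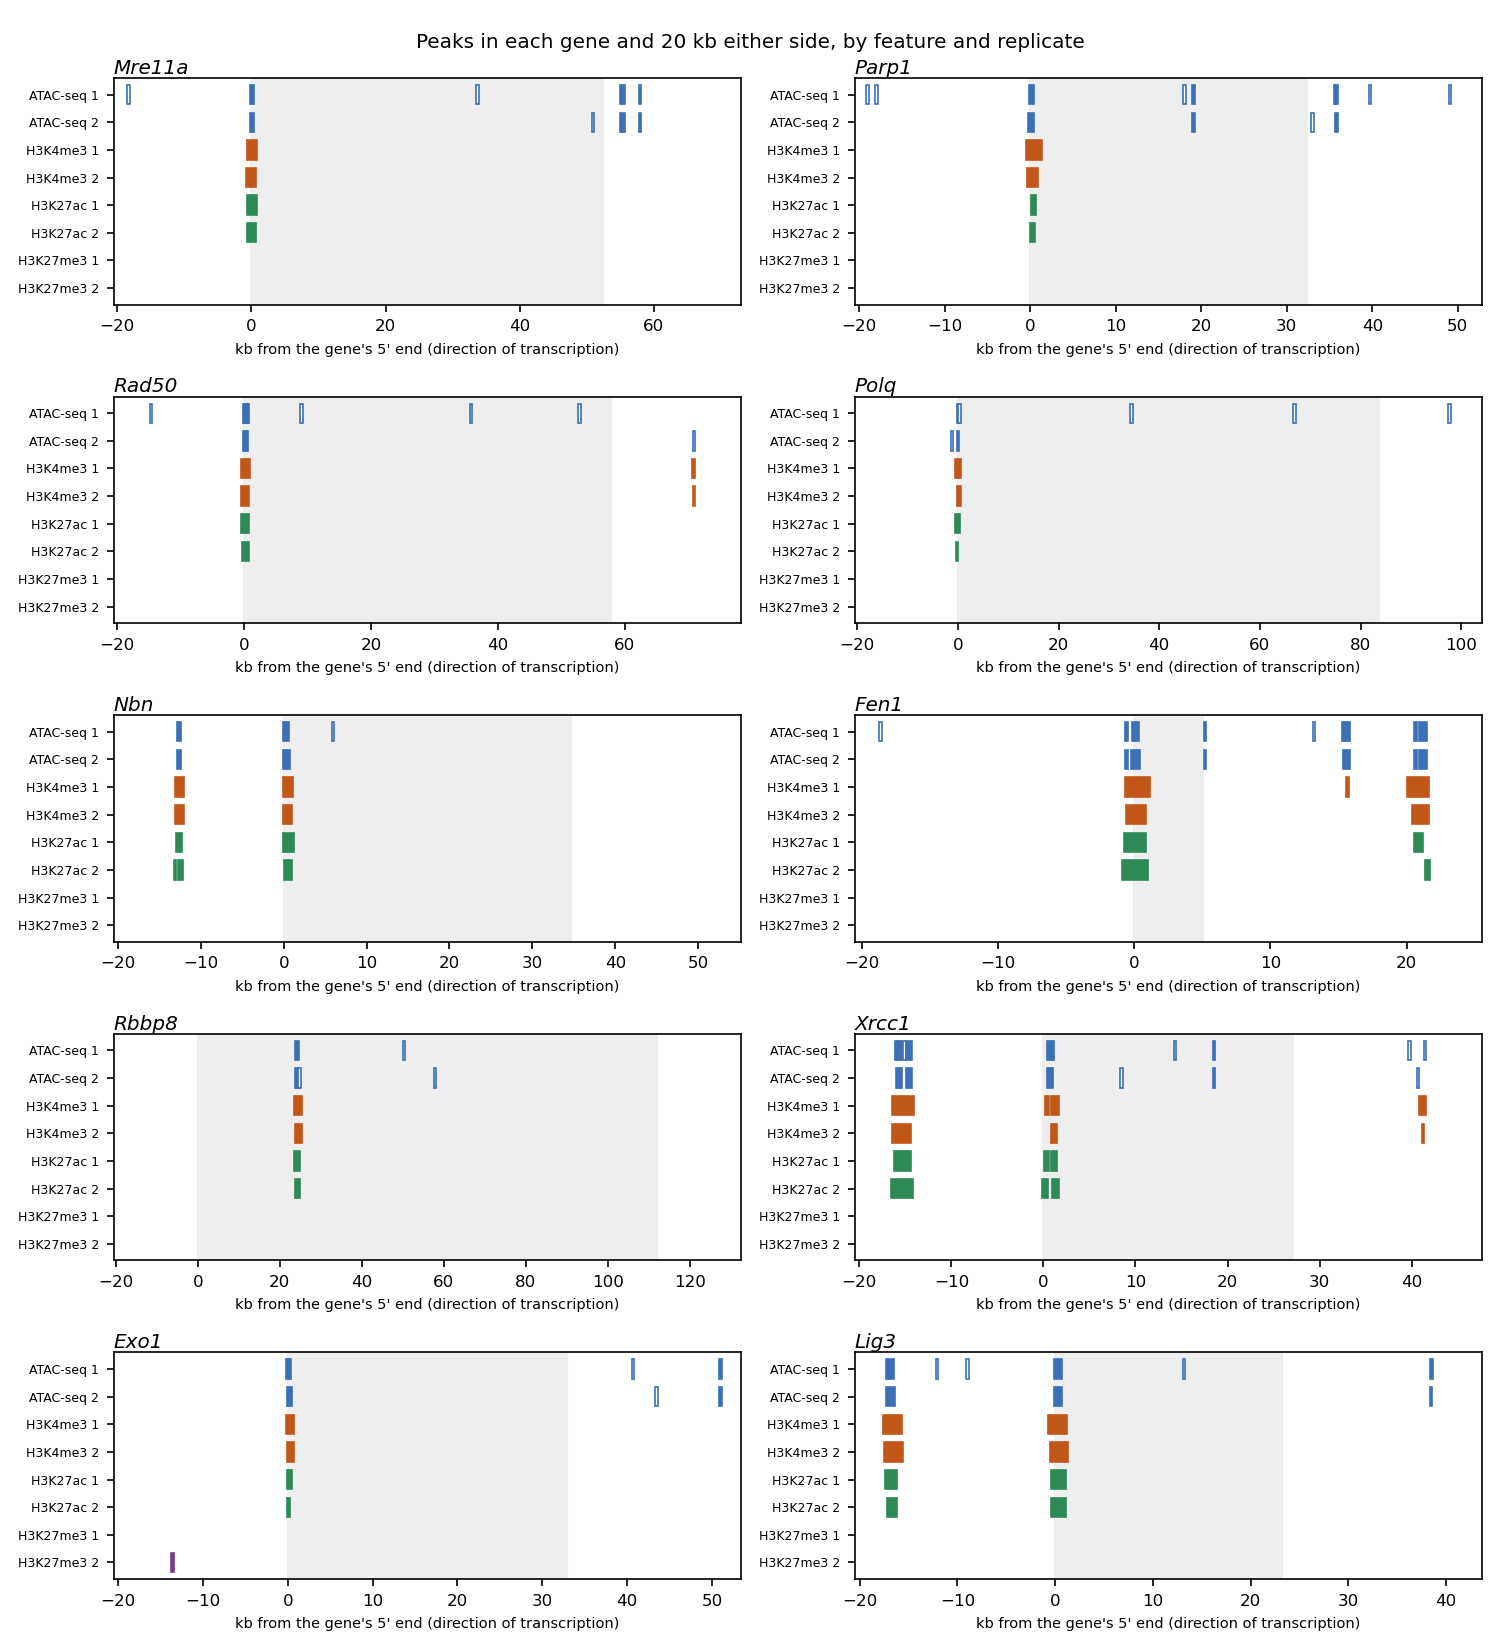
Peaks of each feature and replicate (rows) in the 10 genes and 20 kb either side, placed by distance from the gene's 5' end in the direction of transcription (x axis, kb), with the gene shaded in grey and ATAC-seq peaks that do not overlap the other replicate drawn open. Narrow peaks are widened to remain visible. H3K4me3 (orange) and H3K27ac (green) stand at the start of the gene, or in *Rbbp8* 24.3 kb inside it, and at neighbouring promoters.

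Some neighbouring promoters were higher than the gene's own. Upstream of *Lig3*, at −16.8 kb from its 5' end, the promoter of *Cct6b* and *Zfp830* had ATAC-seq peaks of 16.2-fold and 18.4-fold. Upstream of *Nbn*, at −12.5 kb, that of *Decr1* (with *Mir6400*) had 19.1-fold and 19.5-fold, with H3K27ac of 6.13-fold and 4.78-fold, well below that of *Nbn*. The promoter of *Fads1*, 21.3 and 21.4 kb downstream of the 5' end of *Fen1*, had ATAC-seq peaks of 14.9-fold and 18.4-fold, with H3K27ac of 4.22-fold and 3.47-fold, below that of *Fen1*. These H3K27ac peaks of *Fads1* did not overlap each other between the replicates, and their −log10 q was 3.6 and 2.57. Upstream of *Xrcc1* the promoter of *Irgq* showed the opposite, with less openness (11.3-fold and 8.91-fold) and more H3K27ac (19.6-fold and 14.4-fold) than *Xrcc1*. Within 20 kb beyond the 3' end of *Rad50* lies the promoter of *Il13*, a cytokine gene, named here after its values were seen, with H3K4me3 of 4.67-fold and 3.61-fold and no H3K27ac.

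Open chromatin away from every promoter was present in both replicates near 4 of the 10 genes, namely *Parp1*, *Exo1*, *Mre11a* and *Lig3*, against 52.8% of all protein-coding genes. In replicate 1 alone all 10 genes had such a peak (69.1% of all genes), and in replicate 2 alone 6 had one (56.6%). Near *Parp1* the peak was 18.2-fold and 15.1-fold, higher than at its promoter, and lay 35.9 and 35.8 kb from the 5' end, beyond the 3' end of the gene. Near *Exo1* it was 17.9-fold and 18.4-fold, again higher than at the promoter, and lay 51 kb from the 5' end and 18.1 kb past the 3' end. *Mre11a* had a pair of such peaks past its 3' end, of 11.4-fold and 11.8-fold at 55.1 kb from the 5' end, and of 4.49-fold and 3.73-fold at 55.5 kb. The peak near *Lig3* was 5.79-fold and 9.25-fold and lay in an intron of *Rffl*, a gene named after the values were seen, for the place only. None of these regions had an H3K4me3, H3K27ac or H3K27me3 peak in either replicate, and no H3K27ac peak of the windows lay outside a promoter. Which gene such a region acts on, if any, was not tested.

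The 3 strongest of these regions are shown as the 200 bases around the ATAC-seq summit of replicate 1, on the plus strand of GRCm38.p6, and none of them overlaps an annotated exon. They lie at chr1:180604678-180604877 past *Parp1*, chr1:175931510-175931709 past *Exo1* and chr9:14839617-14839816 past *Mre11a*. Capitals mark CAGCTG, an E-box of the kind that myogenic factors such as MyoD bind, and TGACTCA, the AP-1 site, on either strand. Both were chosen after the sequences were seen.
Parp1 region: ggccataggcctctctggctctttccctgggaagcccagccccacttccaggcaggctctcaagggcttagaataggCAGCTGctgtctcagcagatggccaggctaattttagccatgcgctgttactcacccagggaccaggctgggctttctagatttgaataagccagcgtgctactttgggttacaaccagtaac
Exo1 region: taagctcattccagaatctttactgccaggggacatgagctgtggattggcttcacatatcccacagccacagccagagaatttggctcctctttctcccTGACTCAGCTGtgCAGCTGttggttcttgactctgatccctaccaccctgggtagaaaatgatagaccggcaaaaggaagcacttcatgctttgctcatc
Mre11a region: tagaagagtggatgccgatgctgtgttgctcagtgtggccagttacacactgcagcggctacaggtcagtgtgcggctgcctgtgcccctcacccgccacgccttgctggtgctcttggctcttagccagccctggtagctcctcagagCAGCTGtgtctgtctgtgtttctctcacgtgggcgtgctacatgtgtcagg
CAGCTG was present once past *Parp1*, in 2 copies past *Exo1* and once past *Mre11a*, and once also in the weaker *Mre11a* region, but not in the *Lig3* region. Over the 48588 open regions away from promoters that both replicates share, 31.9% held CAGCTG and 21.9% held TGACTCA in the same 200 bases. TGACTCA was present past *Exo1*, where its last bases overlap the first of the E-boxes, and in none of the other 4 regions. Since the letters were picked from these sequences, their presence in them is no support for any factor.

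The ATAC-seq lists differed in a way that touches these windows. In replicate 1, 28 of the 66 peaks did not overlap a peak of replicate 2, and these had a median width of 84 bp and folds up to 62.9. In replicate 2, 9 of the 39 peaks did not overlap one of replicate 1, with folds up to 5.72. Over the whole lists 52141 of 140716 peaks of replicate 1 and 14414 of 94382 of replicate 2 had no such overlap. The highest of the replicate 1 peaks lay 5.92 kb inside *Nbn*, on a coding exon, with 162 bp and 62.9-fold in replicate 1, above every promoter of the 10 genes, and no peak there in replicate 2. Others in replicate 1 alone were of 21.5-fold in an intron of *Polq*, 34.5 kb inside, of 19.4-fold and 10.9-fold in introns of *Rad50*, of 12.9-fold in an intron of *Rbbp8*, and of 34.8-fold in the promoter of *Il5*, upstream of *Rad50* and named after its value was seen. These were 102 to 130 bp wide, and none carried a histone mark.

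**Figure D4:**
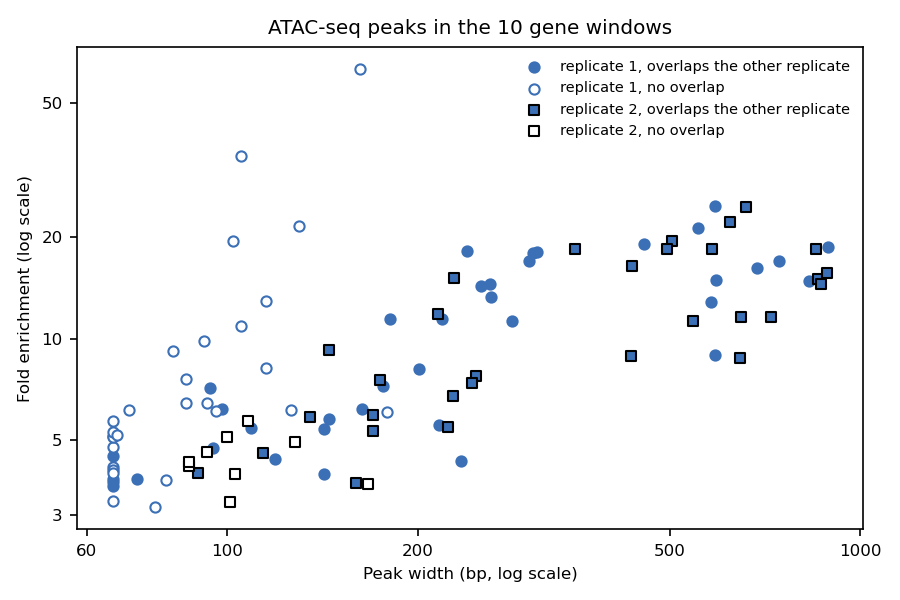
Width (x axis, bp, log scale) and fold enrichment (y axis, log scale) of the ATAC-seq peaks in the windows of the 10 genes, by replicate (circles for replicate 1, squares for replicate 2) and by whether they overlap a peak of the other replicate (filled) or not (open). The open circles reach 62.9-fold at widths of at most 179 bp, while the open squares stay at 5.72-fold or below.

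The same split was seen over the whole lists, with a limit of 19-fold set after the values were seen. Of the replicate 1 peaks at or above it, 3982 did not overlap a replicate 2 peak and had a median width of 118 bp, and 3558 did and had a median width of 468 bp. Of the replicate 2 peaks at or above it, 2642 overlapped a replicate 1 peak and 0 did not. A coding exon was touched by 2.39% of the first set and by 34.4% of the second, by 6.13% and 12.7% of all replicate 1 peaks without and with an overlap, and by 2.8% and 2.92% of those away from promoters. The peaks at the promoters of the 10 genes, and the regions past *Parp1*, *Exo1* and *Mre11a*, were present in both lists with like heights. What the narrow peaks of replicate 1 are was not tested.

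The 10 genes were also set beside other genes of the same and of neighbouring pathways. Of 26 further genes of resection and microhomology joining, among them *Dna2*, a nuclease of long-range resection, and *Topbp1*, an activator of the ATR kinase, 25 had an ATAC-seq peak, 26 an H3K4me3 and 24 an H3K27ac promoter peak in both replicates. *Topbp1* had no ATAC-seq and no H3K27ac peak in the lists used, and *Dna2* had no H3K27ac in replicate 2. Of the 11 genes that restrain resection, 10 were found as protein-coding genes in the annotation (*Shld3* was not). These 10 had the 3 active features in both replicates, and *Mad2l2*, a shieldin subunit, also had H3K27me3 in both. The 10 genes of nonhomologous end joining all had the 3 active features in both replicates and H3K27me3 in neither. Of 12 proliferation genes, *Rrm2* had no promoter peak in the lists used and *Bub1* no H3K27ac. For comparison, 67.8% of all protein-coding genes had a promoter peak of ATAC-seq, 60.8% of H3K4me3 and 46.6% of H3K27ac in both replicates. The 3 active features without H3K27me3 stood at 44.4% of them. The counts thus describe named lists, beside high shares of genes in general.

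The lists differed more in height of H3K27ac than in presence. The median percentile for H3K27ac was 71.3 and 71 for the 10 genes, 53.7 and 44.7 for the other resection and joining genes and 48.3 and 41.9 for the genes that restrain resection. It was 39.8 and 37.6 for nonhomologous end joining and 24.4 and 22.4 for the proliferation genes. The marker genes of MuSCs were about as low, at 28.6 and 22.5. These markers stood at 36 and 36 for openness and at 34.8 and 31.2 for H3K4me3. In openness the 10 genes stood at 72.4 and 70.9, the other resection and joining genes at 81.3 and 69.7, the genes that restrain resection at 76.8 and 81.3, the proliferation genes at 73.7 and 66.3 and the nonhomologous end joining genes at 59.6 and 55.9. For H3K4me3 the genes that restrain resection stood highest of these lists, at 73.2 and 66.7. The lists are of 9 to 26 genes and share their libraries, and the differences between them were not tested. Among the 10 genes, *Polq*, *Parp1* and *Xrcc1* had H3K27ac percentiles below the middle of all marked genes in both replicates. They stood at 8.42 and 0.591, at 28.3 and 9.43 and at 16.9 and 36.3.

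**Figure D5:**
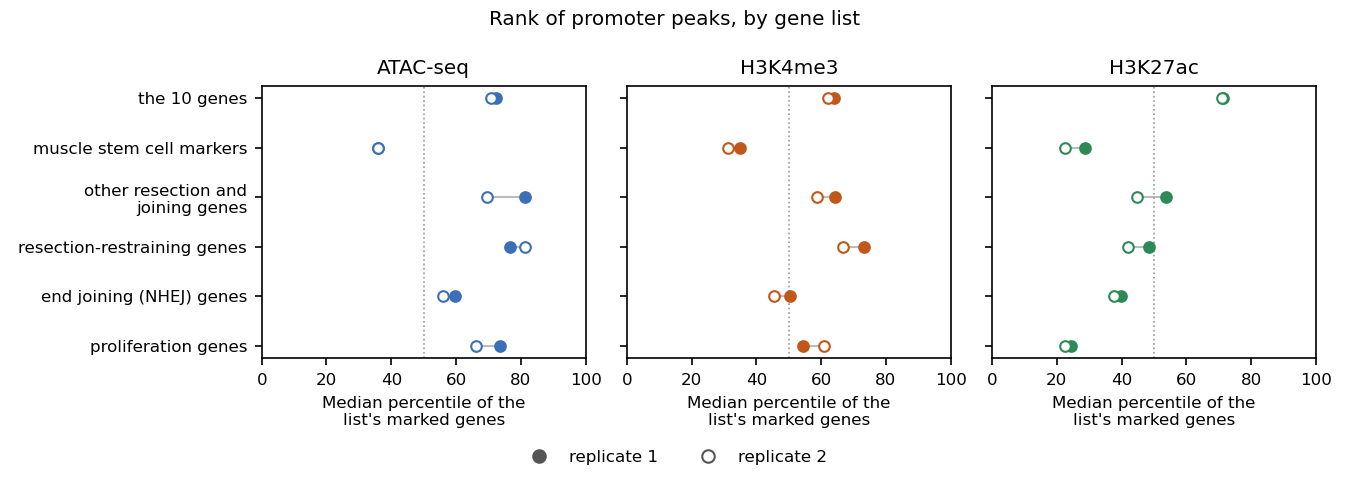
Median percentile of the marked genes of each list (rows) for ATAC-seq, H3K4me3 and H3K27ac (x axis), in replicate 1 (filled) and replicate 2 (open), with the middle of all marked protein-coding genes as a dotted line. For H3K27ac the 10 genes lie at 71.3 and 71, the proliferation genes at 24.4 and 22.4 and the MuSC markers at 28.6 and 22.5.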

How the data were processed

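Chromatin state was read from 8 deposited peak lists of mouse MuSCs, 2 replicates for each of 4 features, and other samples among the 272 were not analysed here. Per the study's methods and the submitters' processing notes, the authors trimmed reads with Trim Galore 0.6.10, aligned them to mm10 with BWA 0.7.17-r1188, removed reads of low mapping quality and duplicates, left out blacklisted regions, shifted ATAC-seq reads for the Tn5 offset with deepTools 3.5.5, and called peaks per library with MACS2 2.2.6. The deposited fold is the authors' enrichment at the summit. The deposited score is 10 times the −log10 q-value in the ATAC-seq, H3K4me3 and H3K27ac lists and 10 times the −log10 p-value in the H3K27me3 lists, in 100.0% of peaks. The deposited p-value and q-value columns are on the −log10 scale by the authors' caller. The lowest −log10 p was 3.01 in both H3K27me3 lists.

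Peaks on the 21 assembled chromosomes were overlapped, from 1 bp, with promoters (3 kb either side of each annotated start site) and with gene windows (20 kb either side) of GENCODE M21, in Python 3.11.15 with numpy 2.4.6. The interval code was tested on simulated data. A gene's height is its highest promoter peak by fold, and its percentile is among the protein-coding genes with a promoter peak in that list. Sequences came from RefSeq and from the GRCm38.p6 genome through samtools 1.23.1. The members and the comparison lists were chosen with earlier results of these data known. The genes named are the 10, genes that share a promoter with them, genes of the comparison lists that lack an active feature or carry H3K27me3, and neighbours with a higher peak than the gene's own in both replicates. *Il5*, *Il13* and *Rffl* fall outside this rule and were named after their values were seen. No test was run, since the lists hold no reads and no groups, and with 2 replicates the spread is given as both values. Alternatives were a −log10 q of at least 5, promoters of 1 kb, windows of 10 and 50 kb, summit overlap, the 5' end alone, ranking by −log10 q and leaving out each replicate.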

Additional observations from a re-analysis of the deposited data

How the results depend on the processing

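No paired analysis was possible because no result comes from a test. Of 66 alternatives to 13 results, 52 stayed within 1.5 times the count or within the SD of the 2 replicates, and 14 moved. Some of the 52 could not have moved, as stated below for H3K27me3 at promoters and for leaving out a replicate. The count of 10 genes with promoter peaks fell to 9 for ATAC-seq, H3K4me3 and H3K27ac when only the 5' end of each gene was used (*Rbbp8*), and to 9 for H3K27ac at a −log10 q of at least 5 (*Polq*). It was 0 for H3K27me3 under each alternative, which could not be otherwise, since no promoter of the 10 genes had such a peak in either replicate. Leaving out a replicate gave 10 for the 3 active features, which could not be otherwise, since all 10 genes had peaks in both replicates.

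The mean count of ATAC-seq peaks in the windows, 52.5, was 33 with 10 kb and 102 with 50 kb either side, and 39 to 66 with 1 replicate. That of H3K4me3, 17, was 10.5 and 29, and 16 to 18 with 1 replicate, and that of H3K27ac, 15.5, was 25 with 50 kb and 15 to 16 with 1 replicate. That of H3K27me3, 0.5, was 0 at a −log10 q of at least 5, 0 with 10 kb, 1.5 with 50 kb and 0 to 1 with 1 replicate. A wider window holds more peaks by construction.

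Ranked by −log10 q in place of fold, the median percentile was 59 in place of 71.7 for ATAC-seq, 60.9 in place of 62.9 for H3K4me3 and 70.4 in place of 71.2 for H3K27ac, and the cause was not tested. With 1 replicate it was 70.9 to 72.4, 62 to 63.8 and 71 to 71.3. A single replicate always lies within the SD of the 2 around their mean, so that this alternative could not move. The genes with an open region away from promoters, 4, were 6 without replicate 1 and 10 without replicate 2, an alternative added after the data were seen, and 5 with promoters of 1 kb or of protein-coding genes alone. That of H3K27ac was 0 to 0. The depth is unknown, so that an absent peak is not an absent mark.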
